A study of Arabidopsis thaliana with 14 samples.

Results

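Transcripts of 10 genes of the endoplasmic reticulum (ER) protein folding machinery of Arabidopsis were followed through cold priming and subsequent triggering. The genes were taken by their TAIR identifiers from a table of 27861 genes. They are the luminal chaperones BIP1 (AT5G28540), BIP2 (AT5G42020), BIP3 (AT1G09080) and SHD (AT4G24190), the lectin chaperones CNX1 (AT5G61790), CRT1a (AT1G56340) and CRT1b (AT1G09210), the disulphide isomerase PDIL1-1 (AT1G21750), the transcription factor BZIP60 (AT1G42990) and SDF2 (AT2G25110). Of the 10 genes, 9 passed the filter of the study on low values, which asks for at least 0.5 FPKM, a fragment number scaled to transcript length and to the reads mapped in the library, in both untriggered libraries and a mean of at least 2 FPKM. BIP3 did not, with 0.36 and 0.34 FPKM before triggering. It is described separately, and counts over members below refer to the other 9, set beside the 15001 genes of the whole table that passed.

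The plants were wild-type Col-0, grown for 28 days at 20 °C. Priming was a stay of 24 h at 4 °C, followed by 5 days at 20 °C, and control plants stayed at 20 °C throughout. Both were then sampled untriggered (C0 for control, P0 for primed) or after 30, 60 and 120 min of triggering, either by cold at 4 °C (C30C to C120C and P30C to P120C) or by heat-filtered high light at 20 °C (photon flux density 800 µmol m-2 s-1) (C30L to C120L and P30L to P120L). Growth, priming and cold triggering took place at about 100 µmol m-2 s-1. Each of the 14 conditions is 1 library, made from the pooled rosettes of at least 5 plants. There is no replicate library, so no ratio below carries an error or a p-value, and the words rose and fell are kept for ratios past the limit of 1.5-fold used in the study (0.58 on the log2 scale).

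C0 and P0 were sampled only before the triggers began. Hence, a trigger response against C0 or P0 and a change with the time of day cannot be told apart, and responses at all times share the same C0 or P0 library. Comparisons of primed with control plants, or of light with cold, at the same time do not involve C0 or P0. In pooled rosettes, fewer cells of a type and less RNA per cell cannot be told apart.

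The FPKM values of a library summed to 701000 to 745000. The 4 leaf markers summed to 42400 to 55100 FPKM in all libraries, while the 5 root markers summed to 0.150 to 1.26, the 4 flower markers to 1.07 to 2.88, the 2 seed markers to 0 to 0.150 and the senescence marker SAG12 stood at 0 to 1.52. The 2 markers of dividing cells summed to 3.54 to 7.04, with 7.04 in C0 and 5.80 in P0. Of these, KNOLLE stood at 5.7 FPKM in C0, 2.91 in C30C and 3.74 in P30C. The mean of the 8 reference genes of the study ranged from 0.941 times its C0 level in C30C to 1.14 times in P120L. Scaling by these genes lowered every log2 ratio by 0.23 for P120L/P0, 0.21 for P120L/P120C, 0.19 for P60L/P0, 0.15 for C60L/C60C, 0.12 for C120L/C0 and C120L/C120C and 0.11 for P60C/C60C, and moved other ratios by 0.10 or less.

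Secreted and membrane proteins fold in the ER. BiP proteins are the HSP70 chaperones of its lumen, SHD (SHEPHERD) is its HSP90, and calnexin (CNX) and calreticulin (CRT) bind the sugar chains of newly made glycoproteins. Protein disulphide isomerases such as PDIL1-1 form and rearrange disulphide bonds, and SDF2 is an ER protein required for the production of some surface receptors. When unfolded proteins build up, the sensor IRE1 splices the BZIP60 mRNA, and the membrane-bound factors bZIP28 and bZIP17 are cut free. The active factors then raise the transcription of chaperone genes, which is known as the unfolded protein response. BIP3 is the BiP gene that is nearly silent in unstressed leaves and strongly induced by ER stress. The FPKM of BZIP60 adds up its spliced and unspliced forms and says nothing about splicing.

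Chaperone genes of this response are known for promoter elements named ERSE-I (CCAAT, 10 bases of any kind, CACG) and ERSE-II (ATTGG, 1 base, CCACG), and for the letters TGACGTGG, the core of the unfolded protein response element first described in mammals. These and TGACGTGT were searched on both strands in the TAIR10.1 sequence from 250 bases before to 50 bases after the gene start. ERSE-I occurred in 5 of the 10 members and in 0.849% of 27443 promoters of the genome, TGACGTGG in 5 members and 1.51% of promoters, ERSE-II in 1 member and 0.0692%, and TGACGTGT in no member and 1.15%. Any of the 4 was found in 6 members, in 12 of 49 other ER genes and in 3.36% of promoters. The stretches of 5 of these 6 members are shown. That of PDIL1-1 is left out because its matches lie on both sides of the gene start. A stretch over all of them, with its flanks, would hold more transcribed bases than the length set for printing. BIP2, CNX1, CRT1a and SHD belong to the group that moved together, as do BIP1, CRT1b and SDF2, which hold no match. BIP3, with 2 matches to ERSE-I, had a pattern of its own. The stretches are written 5′ to 3′ along the gene, all on the minus strand, with the fixed letters of each match in capitals. An element that lies on the opposite strand appears as its reverse complement.
BIP2 (chr5:16810656-16810677): gataATTGGtCCACGTCAtctc
BIP3 (chr1:2931914-2932038): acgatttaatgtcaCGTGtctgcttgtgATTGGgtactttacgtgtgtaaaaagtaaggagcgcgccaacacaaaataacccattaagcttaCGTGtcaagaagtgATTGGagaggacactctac
CNX1 (chr5:24829857-24829886): tgaaTGACGTGGcctgttatgATTGGttag
CRT1a (chr1:21092704-21092821): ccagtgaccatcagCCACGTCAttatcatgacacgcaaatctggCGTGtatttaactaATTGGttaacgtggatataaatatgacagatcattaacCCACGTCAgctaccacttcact
SHD (chr4:12556048-12556118): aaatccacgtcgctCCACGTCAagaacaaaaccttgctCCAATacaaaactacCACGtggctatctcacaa

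In BIP2 the ERSE-II match overlaps a TGACGTGG on the other strand, and in CNX1 the ERSE-I match overlaps TGACGTGG. Every match in BIP2 and CNX1 lies after the annotated gene start, within the transcribed part. PDIL1-1 holds 2 matches to ERSE-I and 1 to TGACGTGG. None of these letters was found in the windows of BIP1, CRT1b, BZIP60 and SDF2. A match is a description of the sequence and not a shown binding site. In TAIR10.1 the annotated genes span chr5:10540123-10543558 (BIP1), chr5:16807342-16810693 (BIP2), chr1:2929217-2931850 (BIP3), chr5:24827063-24829900 (CNX1), chr1:21089565-21092709 (CRT1a), chr1:2972638-2977002 (CRT1b), chr4:12551552-12556058 (SHD), chr1:7645610-7648855 (PDIL1-1), chr1:16135723-16137463 (BZIP60) and chr2:10684118-10686347 (SDF2).

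BIP1 and BIP2 are near copies, with 96.7% identical coding bases and an identical run of 323 bases. Reads of 100 bases cannot be assigned to either gene within such a run, and the split between them is uncertain. The ratio of BIP1 to BIP2 stayed between 1.13 and 1.25 in all 14 libraries. BIP3 shares 72.9% of its coding bases with BIP1 and no identical run over 20 bases. CRT1a and CRT1b share 84.4%, CNX1 and its paralogue CNX2 84.2%, and PDIL1-1 and PDIL1-2 83.4%.

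In untriggered control plants, transcript levels per length were highest for CNX1 (79.31 FPKM) and SHD (78.96), followed by CRT1a (73.36), CRT1b (65), BIP1 (58.01) and BIP2 (51.39). PDIL1-1 (30.87), BZIP60 (30.16) and SDF2 (26.49) formed a lower group, and BIP3 stood far below with 0.36. In P0 the order was the same except that SHD (74.84) stood above CNX1 (74.16). Without replicates, neighbours in this order cannot be separated. Over the 14 libraries, BIP2 and BIP1 had the widest range of the 9 genes, with the highest value 3.72 and 3.70 times the lowest, and CRT1b the narrowest, with 1.69 times. The depth of the table, read from the steps between low FPKM values, corresponds to 25.5 M to 39.2 M fragments per library, and by this estimate the 9 genes rest on 852 to 15137 fragments per library.

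**Figure D1:**
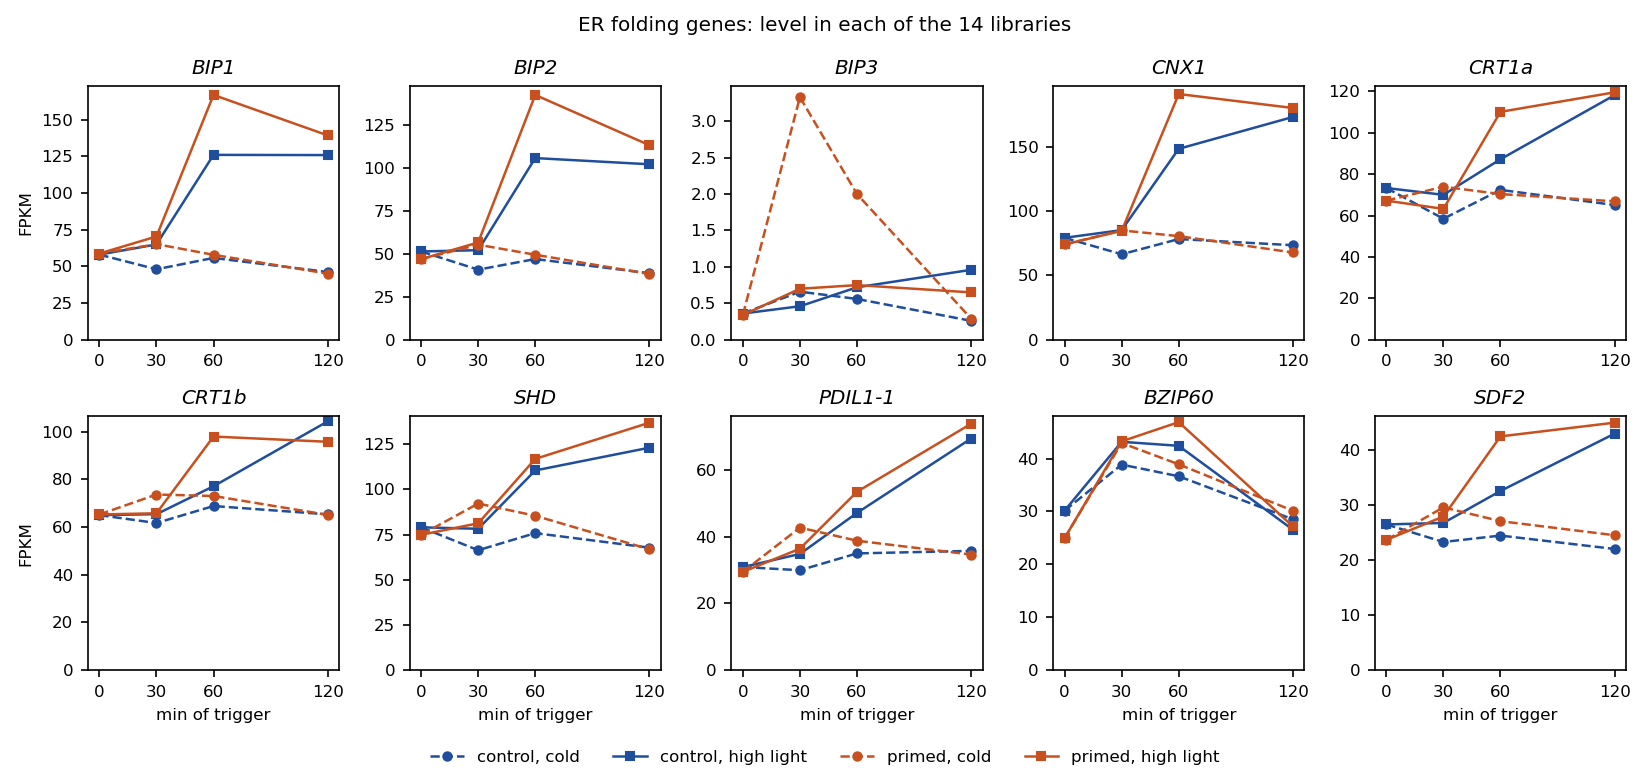
FPKM (vertical axes, from 0, each panel with its own scale) of the 10 genes against the minutes of triggering (horizontal axes), for control (blue) and primed (orange) plants under cold (broken lines, circles) and high light (full lines, squares), with 1 library per point and the untriggered library at 0 min. The solid lines leave the broken ones between 30 and 60 min in 8 panels, BIP3 is highest in primed plants after 30 min of cold (3.33 FPKM), and BZIP60 is back near its start at 120 min in both triggers.

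Before triggering, 5 days after the priming cold, the log2 ratios of primed to control plants lay between -0.27 and 0.02 for the 9 genes. None of the 9 genes passed 1.5-fold in P0/C0, against 3.11% of all analysed genes, and at this share none of 9 is not a result about the members. The median log2 ratio of the members was -0.10, against -0.05 for all genes. The largest difference was that of BZIP60, with 24.96 FPKM in primed and 30.16 in control plants (log2 ratio -0.27). Of the other 8 genes, 6 were lower in P0 than in C0, as were 64.5% of all genes.

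In control plants, no analysed folding gene passed the limit in the cold. In C30C/C0 none of the 9 passed 1.5-fold, against 9.43% of all genes in either direction, and in C60C/C0 and C120C/C0 again none, against 10.8% and 16.9%. At such shares of all genes, none of 9 is not a result about the members. After 30 min, the 8 chaperone and enzyme genes all stood below C0, and only BZIP60 above it (38.87 FPKM in C30C, 30.16 in C0), while 30.6% of all genes had a ratio above 1. The median log2 ratio of the 9 genes was -0.25, against -0.12 for all genes. CRT1a, for example, went from 73.36 to 58.50 FPKM and BIP2 from 51.39 to 40.82. For CRT1b (log2 ratio -0.08) and PDIL1-1 (-0.05) the direction flips under both scalings tried, since the reference genes add 0.09 and the median ratio to C0 adds 0.12. At 60 min the median of the members was -0.02. At 120 min 6 of the 8 stood below C0, as did 63.7% of all genes, with BIP2 lowest at -0.41 on the log2 scale.

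In primed plants, all 9 genes were above P0 after 30 min of cold, as were 49.1% of all genes, with a median log2 ratio of 0.24 against 0.00 for all genes. BZIP60 passed the limit, rising from 24.96 to 42.95 FPKM (log2 ratio 0.78), which makes 1 of 9 genes against 7.83% of all genes. After 60 min BZIP60 stood at 38.92 FPKM (0.64) and was again the only member past the limit in P60C/P0, where 11.8% of all genes passed. Scaled by the reference genes, it did not pass there. After 120 min none passed in P120C/P0, against 18.5%, and BIP1 (45.05 FPKM) and BIP2 (38.28) had their lowest values of all libraries there.

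At 30 min of cold, primed plants stood above control plants. BIP1 stood at 65.13 FPKM in P30C and 48.02 in C30C, BIP2 at 55.33 and 40.82, CNX1 at 85.06 and 66.51, and SHD at 92.12 and 66.31. The corresponding values were 73.96 and 58.50 FPKM for CRT1a, 73.64 and 61.68 for CRT1b, 42.68 and 29.91 for PDIL1-1, 29.60 and 23.30 for SDF2, and 42.95 and 38.87 for BZIP60. All 9 ratios were above 1, as were those of 65.2% of all genes, and none passed 1.5-fold, which 4.21% of all genes did. The median log2 ratio of the 9 genes was 0.35, against 0.06 for all genes. The largest was that of PDIL1-1 with 0.51, or 1.43-fold, and the smallest that of BZIP60 with 0.14. These 9 ratios all rest on the single libraries P30C and C30C, and stayed above 1 under both scalings.

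The difference between primed and control plants was smaller at the later times of cold. After 60 min none of the 9 genes passed the limit, against 4.85% of all genes, and the log2 ratios ranged from -0.04 for CRT1a to 0.17 for SHD. After 120 min none passed, against 2.18%, and the ratios ranged from -0.12 (CNX1) to 0.16 (SDF2). SDF2 was the member whose cold course differed in sign at each time. In control plants it went from 26.49 FPKM to 23.30, 24.47 and 22.03 after 30, 60 and 120 min, and in primed plants from 23.68 to 29.60, 27.09 and 24.53. All 3 control values lay below their start and all 3 primed values above theirs. At 120 min the primed log2 ratio was only 0.05, against -0.01 for CRT1a.

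**Figure D2:**
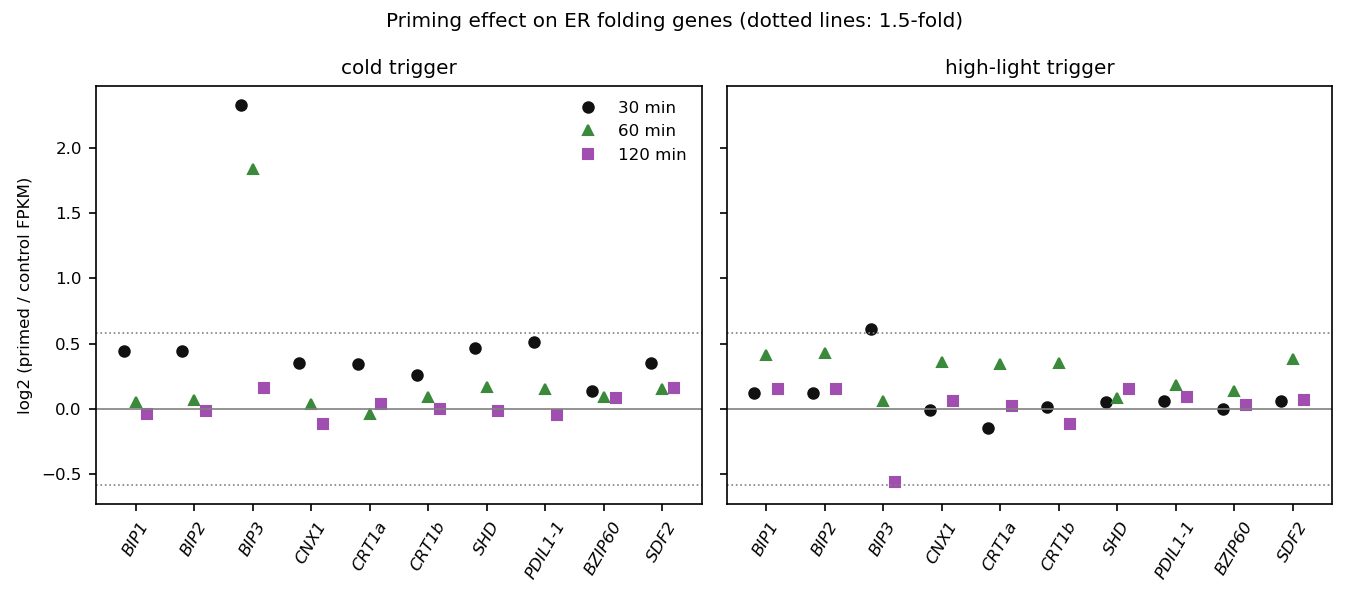
Log2 ratio of primed to control FPKM (vertical axis) for each of the 10 genes under cold (left) or high light (right), with the time in the legend (30, 60 or 120 min), 1 ratio of single libraries per symbol, with 1.5-fold limits as dotted lines. After 30 min of cold and after 60 min of light the 9 analysed genes are all above 0 and below the limit, with medians of 0.35 in both, and BIP3 is beyond the limit after 30 and 60 min of cold.

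BIP3 had the largest change of the 10 genes, at a low level. In the cold, control plants had 0.66, 0.56 and 0.26 FPKM after 30, 60 and 120 min, and primed plants had 3.33, 2.00 and 0.29. The 2 early primed values are the highest of all libraries, and at 120 min control and primed plants were back at the level of the start. By the depth estimated from the table, P30C corresponds to 241 fragments, C30C to 40, P60C to 115 and C60C to 32, whereas all other libraries lie between 15 and 56.

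The 95% intervals below are exact intervals for these fragment numbers, cover counting error only and say nothing about variation between plants. P30C stood 5.05-fold above C30C (3.60 to 7.24) and 9.79-fold above P0 (6.52 to 15.3). P60C stood 3.57-fold above C60C (2.40 to 5.46) and 5.88-fold above P0 (3.82 to 9.38). At 120 min the ratio of primed to control plants was 1.12 (0.519 to 2.37). The rise of control plants at 30 min of cold was 1.83-fold (1.05 to 3.31).

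In high light, BIP3 remained below 1 FPKM in every library. Control plants had 0.46, 0.72 and 0.96 FPKM after 30, 60 and 120 min, and primed plants 0.70, 0.75 and 0.65. Against C0, the control values were 1.28-fold (0.702 to 2.37), 2.00-fold (1.18 to 3.53) and 2.67-fold (1.57 to 4.70) in this order. Against P0, the primed values were 2.06-fold (1.27 to 3.42), 2.21-fold (1.35 to 3.69) and 1.91-fold (1.15 to 3.25). Primed and control plants could not be separated by counting error at 30 min (ratio 1.52, 0.960 to 2.46), 60 min (1.04, 0.693 to 1.56) or 120 min (0.677, 0.441 to 1.03). In primed plants, light stood below cold, at 0.210 times the cold value after 30 min (0.154 to 0.282) and 0.375 times after 60 min (0.263 to 0.527).

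**Figure D3:**
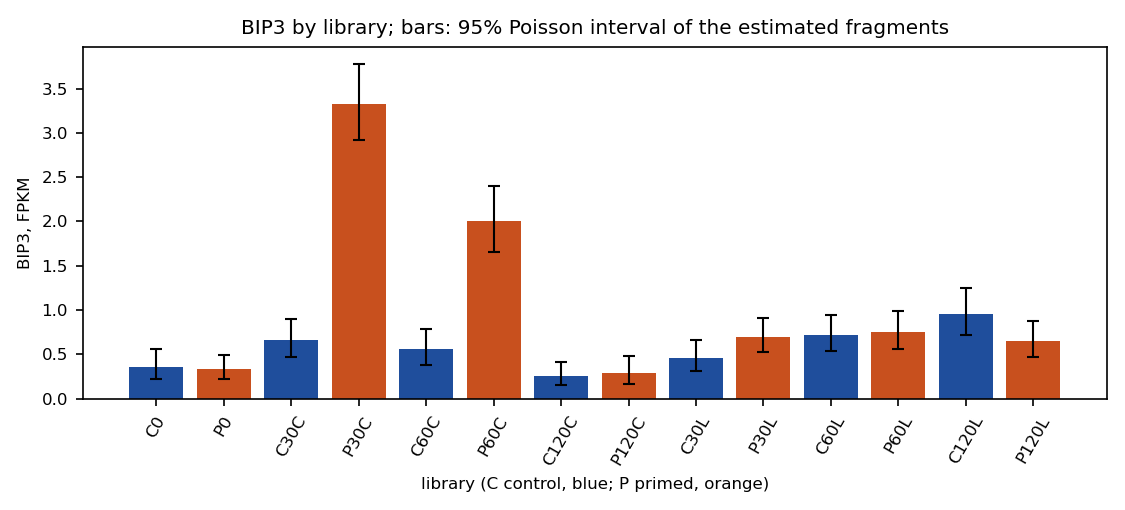
FPKM of BIP3 (bars from 0) in each of the 14 libraries, control in blue and primed in orange, with the 95% Poisson interval of the estimated fragment number as error bars, which cover counting error only. P30C (3.33 FPKM) and P60C (2.00) stand above the other 12 libraries, whose values lie between 0.26 and 0.96.

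High light moved the abundant folding genes in the opposite order, with little change at 30 min and higher levels from 60 min on. In C30L/C0 none of the 9 rose, against 3.99% of all genes, and the median log2 ratio was 0.02. In P30L/P0 1 of the 9, BZIP60, rose from 24.96 to 43.27 FPKM (0.79), against 8.07% of all genes. Control plants reached the same level from a higher start, with 30.16 FPKM in C0 and 43.18 in C30L (0.52), and P30L/C30L was 0.00. Scaled by the median ratio to C0 (0.59) or set against the geometric mean of C0 and P0 (0.65), BZIP60 passed the limit in control plants too. Against cold at the same time, no member passed the limit upwards, either in C30L/C30C (5.80% of all genes) or in P30L/P30C (5.00%).

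After 60 min of light, 4 of the 9 genes had risen in control plants, against 10.1% of all genes. BIP1 rose from 58.01 to 125.97 FPKM (2.17-fold), BIP2 from 51.39 to 105.77 (2.06-fold), CNX1 from 79.31 to 148.54 (1.87-fold) and PDIL1-1 from 30.87 to 47.08 (1.53-fold). With scaling by the reference genes PDIL1-1 (0.53) did not pass, which left 3 of 9. SHD (110.43 FPKM, log2 ratio 0.48), BZIP60 (42.42, 0.49), SDF2 (32.58, 0.30), CRT1a (87.25, 0.25) and CRT1b (77.11, 0.25) stood higher than in C0 within the limit. Both BiP genes and calnexin had larger ratios than the 2 calreticulins.

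In primed plants all 9 genes had risen after 60 min of light, against 10.8% of all genes, with a median log2 ratio of 0.86 against -0.03 for all genes. BIP1 rose from 58.74 to 166.80 FPKM (2.84-fold), BIP2 from 46.95 to 142.52 (3.04-fold) and CNX1 from 74.16 to 191.18 (2.58-fold). CRT1b had the smallest rise, from 65.28 to 97.96 FPKM (0.59 on the log2 scale), and lies just past the limit. With scaling by the reference genes 6 of the 9 passed. The 5 others went from 67.26 to 110.16 (CRT1a), 74.84 to 116.83 (SHD), 29.41 to 53.41 (PDIL1-1), 24.96 to 46.90 (BZIP60) and 23.68 to 42.51 FPKM (SDF2). P60L was the highest of all 14 libraries for BIP1, BIP2, CNX1 and BZIP60.

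After 120 min of light, 8 of the 9 genes had risen in control plants, against 13.3% of all genes, and 7 in primed plants, against 15.0%. BIP1 stood at 125.81 FPKM in C120L and 139.25 in P120L, and CNX1 at 173.31 and 180.31. PDIL1-1 had its highest values there (69.35 and 73.79), 2.25-fold C0 and 2.51-fold P0. SHD (123.02 and 136.84), CRT1a (118.23 and 119.60) and SDF2 (43.01 and 45.01) also had their highest values at 120 min. With scaling by the reference genes, 4 instead of 8 genes passed in C120L/C0, since the log2 ratios of SHD (0.64), CRT1b (0.68), CRT1a (0.69) and SDF2 (0.70) lie close to the limit.

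BZIP60 went the other way between 60 and 120 min of light. It fell from 42.42 to 26.56 FPKM in control plants (-0.68) and from 46.90 to 27.18 in primed plants (-0.79), close to its start. For BIP1, the step was 0.00 in control and -0.26 in primed plants, and for PDIL1-1 it was 0.56 and 0.47.

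The comparison of light with cold at equal times is free of the time of day. After 60 min, BIP1, BIP2 and CNX1 passed the limit in C60L/C60C, with log2 ratios of 1.18, 1.17 and 0.92 (3 of 9 genes, against 8.47% of all genes), and with CRT1a and SDF2 5 genes passed in P60L/P60C (7.81%). Scaling by the reference genes left 3 of these 5. After 120 min 8 genes passed in C120L/C120C (14.2%) and 7 in P120L/P120C (14.1%), with medians of 0.96 and 1.03. BIP1 stood 1.45 and 1.63 above its cold level on the log2 scale. For each of the 8 analysed genes other than BZIP60, the lowest of the 4 libraries of 60 and 120 min of light lay above the highest of the other 10 libraries.

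Primed plants stood above control plants in the middle of the light course. After 60 min all 9 genes had a ratio above 1, whereas 42.3% of all genes did, and the median log2 ratio was 0.35 against -0.05 for all genes. No member passed 1.5-fold, against 6.23%. BIP2 had the largest ratio with 0.43, followed by BIP1 (0.41), SDF2 (0.38), CNX1 (0.36), CRT1b (0.35) and CRT1a (0.34), while PDIL1-1 (0.18), BZIP60 (0.14) and SHD (0.08) were closer to 0. All 9 stayed above 1 under both scalings. At 30 min none of the 9 passed the limit, against 3.46% of all genes, and the log2 ratios ranged from -0.15 for CRT1a to 0.12 for both BiP genes. At 120 min none passed, against 6.40%, and they ranged from -0.12 for CRT1b to 0.15 for BIP1, BIP2 and SHD.

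The 8 abundant chaperone and enzyme genes shared much of their course. Over the 14 libraries, Pearson's r of log2(FPKM + 1) between any of their 28 pairs was 0.85 to 1.00, and r of each gene with the mean of the other analysed members was 0.91 (PDIL1-1) to 0.98 (CNX1). BZIP60 had an r of 0.01 with that mean and BIP3 of 0.26. These correlations describe libraries that share their time points and, for BIP1 and BIP2, their reads.

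The genes outside the 10 whose pattern was most like the mean of the analysed members were PDIL2-2 (AT1G04980, r = 0.99), a further disulphide isomerase, and ERDJ3B (AT3G62600, 0.98), a DnaJ partner of BiP in the ER lumen. They were followed by AT4G29520 (0.97), the signal peptide peptidase SPP (AT2G03120, 0.97), AT1G27350 (0.97), annotated as a RAMP4 family protein, and DRB5 (AT5G41070, 0.96). ERDJ3B stood at 25.19 FPKM in C0, 42.42 in C60L and 50.80 in P60L, and PDIL2-2 at 2.91, 6.29 and 8.34. In these 3 libraries AT1G27350 had 28.37, 47.90 and 59.97 FPKM.

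BZIP60 was most like SYP121 (AT3G11820, r = 0.95), AT2G39650 (0.95), the miscellaneous RNA AT3G27997 (0.94) and AT1G69840 (0.91). SYP121, a syntaxin of the plasma membrane, went from 33.21 FPKM in C0 to 42.83 in C30L and 31.32 in C120L. BIP3 was most like AT4G10500 (r = 0.94), the salicylic acid response gene PR2 (AT3G57260, 0.91), AT1G57630 (0.90) and the receptor-like protein RLP41 (AT3G25010, 0.90). PR2 stood at 26.21 FPKM in C30C and 126.88 in P30C, and AT4G10500 at 3.45 and 27.39. Both had lower values at 60 min, with 58.93 and 9.35 FPKM in P60C. The likeness rests in part on the early primed cold libraries. Without P30C, r was 0.86, 0.82, 0.85 and 0.77 in the same order, and without P30C and P60C it was 0.71, 0.79, 0.84 and 0.60.

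A further 49 genes of ER folding, its sensors and ER-associated degradation were examined in 5 lists, of which 48 passed the filter. In P30C/C30C, 6 of the 48 rose, against 3.20% of all genes, and none fell. These were TIN1 (1.34 on the log2 scale, from 0.60 and 1.52 FPKM), PDIL2-2 (1.03), PDIL1-2 (0.85), ERDJ3A (0.80, from 0.96 and 1.67 FPKM), CRT3 (0.69) and PDIL1-3 (0.59). TIN1 and ERDJ3A are among the 48 only through light libraries, and their part of this count is not read as a result. The other rises were 1 of 8 lectin chaperones and glycan processing enzymes and 3 of 14 isomerases and oxidases. CRT3, a calreticulin needed for the maturation of immune receptors, stood at 40.05 FPKM in C30C and 64.62 in P30C, and PDIL1-2, the paralogue of PDIL1-1, at 13.47 and 24.24. The median over the 48 genes was 0.11, lower than the 0.35 of the 9 members and close to the 0.06 of all genes.

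Among lectin chaperones and glycan processing enzymes, none of 8 rose in C60L/C0 or C120L/C0, where 10.1% and 13.3% of all genes did. CNX2 went from 11.31 FPKM in C0 to 16.32 in C60L (0.53) and was the only gene of this list to rise in P60L/P0, from 11.51 to 20.16 (0.81). Of the 14 other isomerases and oxidases, 4 rose in C60L/C0 and 6 in C120L/C0, and none fell. ERO1, the oxidase that recharges disulphide isomerases, rose by 1.73 on the log2 scale after 60 min, from 1.63 to 5.42 FPKM, and PDIL2-2 rose by 1.64 after 120 min.

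ERDJ3A and TIN1 passed the filter on the mean only through the light libraries where they are high, with 0.37 to 1.67 and 0.21 to 1.52 FPKM in the 8 others, and are left out of the next counts, a choice made after seeing the data. Of the 5 remaining cochaperones of BiP, 3 rose in C60L/C0, where 10.1% of all genes did. These were HSP70-17 (0.83), ERDJ3B (0.75) and P58IPK (0.69), while the translocon partners ERDJ2A (-0.03) and ERDJ2B (-0.07) stayed near C0. Of the 10 remaining sensors and transcription factors, 4 rose in C60L/C0, with BI-1, an inhibitor of cell death in the ER membrane, at 1.41 and NAC089 at 1.02 as the largest. In C60L, ERDJ3A stood at 28.92 FPKM and TIN1 at 17.90. The sensors IRE1A (0.39) and IRE1B (0.03) did not pass the limit. BZIP28 stood at 12.23 FPKM in C0 and 16.86 in C60L (0.46), and fell to 6.80 in C120C (-0.85). NAC103 did not pass the filter, with 0.14 to 0.48 FPKM. Of 9 genes of ER-associated degradation, DER1 rose in C60L/C0 (0.96), and the median of this list was 0.14, against 0.49 for the members.

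BiP and SHD have homologues in the cytosol, plastids and mitochondria, and 15 such HSP70 and HSP90 genes were compared. The gene lists overlapped in their light response, and no test between them was made. In C30L/C0, 8 of the 15 rose, with a median log2 ratio of 0.84, where none of the 9 ER members (0.02) and 3.99% of all genes did. In C60L/C0, 10 rose with a median of 1.14, against 4 of 9 members with a median of 0.49 and 10.1% of all genes. HSP70B passed the filter on the mean only through the light libraries, and without it 7 of 14 rose in C30L/C0 and 9 of 14 in C60L/C0. This count was chosen after seeing the data. HSP90.1, the heat-inducible HSP90 of the cytosol, rose from 4.18 to 401.01 FPKM (6.58), and HSP90.5 of the plastid (1.14) and HSP90.6 of mitochondria (1.10) rose by more than SHD (0.48). The mitochondrial HSP70 gene mtHSC70-2 rose from 31.88 to 184.96 FPKM (2.54). It is more abundant than mtHSC70-1 over all libraries only through its light values. From a similar level in C0 (29.13 FPKM), mtHSC70-1 went to 38.95 in C60L and did not pass the limit. The most abundant plastid HSP70, cpHSC70-2, went from 209.02 to 299.81 (0.52). The most abundant cytosolic HSP70, HSC70-1, went from 1317.72 to 1854.70 FPKM (0.49), less than BIP1 (1.12). Coding sequences of SHD and HSP90.1 share 61.6% of their bases, with no identical run over 20 bases.

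By 120 min of light, 8 of the 15 genes and 8 of the 9 members were past the limit in control plants, with medians of 0.66 and 0.70. Of all genes, 13.3% rose. Without HSP70B, 7 of 14 passed. HSP90.1 was then at 31.62 FPKM in control plants. In the cold, 7 of the 15 fell in C120C/C0 and 10 of the 15 in P120C/P0, against 1348 and 1311 of the 15001 genes. None of the 9 members passed the limit there in either direction. At such shares of all genes, none of 9 is not a result about the members. In P30C/C30C the 15 genes had a median of 0.01, against the median of 0.35 of the members. Of the 15, 1 rose, HSC70-2 (0.72), as did 3.20% of all genes. In P30L/C30L 5 of the 15 rose with a median of 0.45 (4 of 14 without HSP70B, 0.35), where the members had 0.05. Of all 15001 genes, 378 rose there.

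**Figure D4:**
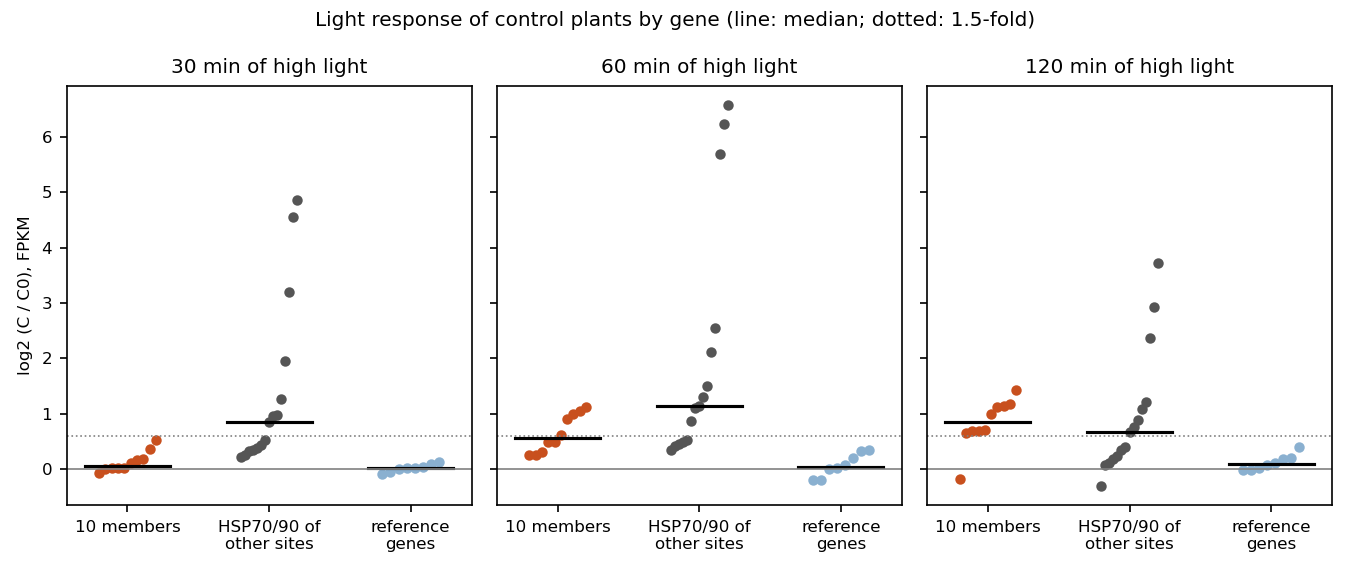
Log2 ratio of control plants in high light to C0 (vertical axis) after 30, 60 and 120 min, for the 10 members, 15 HSP70 and HSP90 genes of other compartments and the 8 reference genes, with 1 gene per point, the median as a line and 1.5-fold as a dotted line. The gene groups overlap at all 3 times. HSP90.1 is highest at 60 min (6.58).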

How the data were processed

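RNA was measured in 14 libraries of rosettes, 1 per condition, from samples labelled with their priming, trigger and time. Per the paper's methods, the authors sequenced 100 bp paired ends, filtered reads by quality, aligned them to TAIR10 and deposited FPKM values (fragments scaled to exon length and to the mapped reads) for 27861 genes. The paper names Bowtie2 and RSEM for this, whereas the submitters' notes name HISAT2 2.1.0. Aligners and counters that differ in the treatment of shared reads would change the split between BIP1 and BIP2.

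FPKM were used as deposited, without scaling or pseudocount. Log2 ratios were taken for 25 comparisons over the 15001 genes past the filter (minimum 0.5 FPKM in each of C0 and P0, mean 2), with the limit of 1.5-fold. As there is 1 library per condition, no test was made. Fragment numbers were estimated from the steps between low values of genes with a single annotated transcript. For each library, the depth between 20 M and 45 M fragments was taken at which most values came out whole (86.5% to 90.8% of 485 to 637 values, tolerance 0.12 fragment, 65 bases taken from each transcript length). Multiples of a depth would give whole values too, and the estimate therefore depends on the range searched. Likeness of pattern was Pearson's r of log2(FPKM + 1). TAIR10.1, whose locus tags match 27768 of the identifiers, was the source from which gene spans and promoter sequence were read.

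All 10 members are named. Of the other ER lists, up to 3 genes per list and comparison with the largest ratio past the limit are named, together with the 6 genes most like the mean of the members and the 4 most like BIP3 and BZIP60. Of the HSP70 and HSP90 genes, the most abundant in each compartment by the mean over all libraries, light included, and HSP90.1 are named. HSP90.5, HSP90.6, HSC70-2, HSP70B, mtHSC70-1, IRE1A, IRE1B, ERDJ2A, ERDJ2B, BZIP28, CNX2, NAC103 and the remaining genes past the limit were named after their values had been seen. The members and lists were chosen with earlier results of these data known. Alternatives were another pseudocount, 2 scalings, another baseline, other filters, a 2-fold limit and BIP1 and BIP2 summed. Python 3.11.15, pandas 2.3.3, NumPy 2.4.6, SciPy 1.17.1, Biopython 1.88 and matplotlib 3.10.9 were used, and ratios and pattern search were tested on simulated data.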

Additional observations from a re-analysis of the deposited data

Results flagged for a closer look

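SDF2 had cold responses of opposite sign in control and primed plants. All 3 control libraries in the cold lay below C0 (log2 ratios -0.19, -0.11 and -0.27 after 30, 60 and 120 min) and all 3 primed libraries above P0 (0.32, 0.19 and 0.05). The mean log2 ratio over the 3 times was 0.38 higher in primed plants. Part of this comes from the lower primed start (P0/C0 -0.16), and the direct ratios of primed to control plants were 0.35, 0.15 and 0.16. Nor is the size of the gap particular to SDF2. BZIP60 had 0.37, 0.28 and -0.08 in control and 0.78, 0.64 and 0.27 in primed plants. With 1 library per condition this difference was not tested, and the 3 ratios of each group share C0 or P0.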

How the results depend on the processing

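No paired analysis was possible because each condition has 1 library, and no replicate could be left out. Of 725 counts and medians over the members, 696 changed by less than 1.5 times or the SD of log2 P0/C0 over all analysed genes (0.233), and no ratio called at the limit changed sign. Many of these could hardly move. A minimum mean of 10 FPKM keeps the same 9 genes, and no member was lower past the limit in the main setting. Scaling by the median ratio shifts log2 ratios by 0.12 at most. This share and the one for single members below are therefore no measure of robustness. Without a filter BIP3 enters, so that members past the limit became 1 in C30C/C0, 2 in P30C/P0, 1 in P30C/C30C, 2 in P30L/P0, 1 in P30L/C30L, 1 in C60C/C0, 2 in P60C/P0 and 1 in P60C/C60C, and 1 fell in P30L/P30C and in P60L/P60C. With a 2-fold limit, 0 members rose in P30C/P0, P30L/P0 and P60C/P0, 2 in C60L/C0, 3 in P60L/P0, 3 in P60L/P60C, 3 in C120L/C0, 4 in P120L/P0 and 3 in C120L/C120C. Scaling by the reference genes left 3 in C60L/C0, 0 in P60C/P0, 3 in P60L/P60C and 4 in C120L/C0, and gave a median of 0.69 for P120L/P0. Scaling by the median ratio to C0 gave 1 in C30L/C0, and the geometric mean of C0 and P0 as the start gave 1 in C30L/C0 and 0 in P60C/P0. Without BZIP60, an alternative chosen after seeing the data, 0 remained in P30C/P0, P30L/P0 and P60C/P0. Of the ratios of single members, 1439 of 1475 stayed within that SD. The 36 others were 20 of BIP3 with a pseudocount of 1 FPKM (P30C/C30C 1.38 in place of 2.33), 6 of BZIP60 counted from each group's own start (P30C/C30C 0.42 in place of 0.14), and 10 with reference gene scaling in P120L/P0. The r of the 14 genes of like pattern moved by 0.1 or less with FPKM without log and without the 120 min light libraries. The depth limits BIP3, with 15 to 56 fragments in 12 libraries, and not the other members.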

Other observations

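A few ER genes outside the 10 had an early light pattern unlike that of the members. They were picked after their values were seen, and ERDJ3A and TIN1 passed the filter only through the light libraries. ERDJ3A, a DnaJ protein of the ER lumen known from heat stress of pollen, stood at 1.18 FPKM in C0, 22.29 in C30L and 50.86 in P30L. It was still at 28.92 and 36.16 FPKM after 60 min in control and primed plants and at 2.39 and 2.93 after 120 min. TIN1, a gene induced by the ER stress agent tunicamycin, followed the same course with 0.62 FPKM in C0, 12.80 and 27.84 after 30 min, 17.90 and 27.98 after 60 min and 2.45 and 3.82 after 120 min. BI-1 went from 28.96 to 53.32 FPKM in C30L and 93.52 in P30L, and DER1, a component of ER-associated degradation, from 22.37 to 33.13 and 53.18. In P30L/C30L these 4 were the ER genes outside the members that passed 1.5-fold, with log2 ratios of 1.19 (ERDJ3A), 1.12 (TIN1), 0.81 (BI-1) and 0.68 (DER1). ERDJ3A and TIN1 are among the 48 analysed only through light libraries, so they are left out of the following counts. BI-1 was then 1 of 10 sensors and transcription factors, and DER1 was 1 of 9 degradation genes. None of 5 cochaperones, 8 lectin chaperones and glycan processing enzymes or 14 isomerases and oxidases passed. Of all genes, 3.46% passed in either direction, and counts this small are not read as a result about the ER genes. At this time BIP1 and BIP2 had a ratio of 0.12.

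In the cold, ERDJ3A and TIN1 fell in control plants to 0.37 and 0.21 FPKM after 120 min. In P30C they stood at 1.67 and 1.52 FPKM, against 0.96 and 0.60 in C30C. These are levels of few fragments, and the ratios have no replicate.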
